A study of Mus musculus with 2 samples.

Results

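The 8 C-type lectin receptor genes of myeloid cells examined were Clec4n, Clec4d, Clec4e, Clec7a, Clec5a, Clec4a2, Clec12a and Clec10a. They were chosen by symbol, because Clec4n was lower in the neutrophils of treated mice in these same data, so the value of Clec4n in neutrophils is a description and supports nothing. Of the 8 genes, 7 were matched among the 32285 genes listed in the matrices, and Clec7a was not analysed here. Single-cell RNA sequencing had been carried out on cells released from the mouse calvaria around a surgical defect, with 1 library for mice given gambogic amide (GA), a small molecule agonist of the nerve growth factor receptor TrkA, and 1 library for control mice. All mice were C57BL/6 by the labels (C57BL/6J in the study's methods) and aged 2 months, and each library pooled the cells of 5 mice taken 7 days after injury. GA was injected into the peritoneum at 1.2 mg/kg in 10% DMSO and control mice received 10% DMSO alone, both as 100 µL daily for 1 week from 24 h before injury, as the labels state. The methods of the study give a higher dose of GA for its experiments as a whole.

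With 1 library per condition there is no replicate and no test between conditions, and every interval below covers the counting error of molecules only. Unique molecular identifiers (UMIs), each a captured transcript, were added up for each cell class and library, and a gene's sum was scaled by the sum of all genes there (CPM, counts per 1e6 UMIs). These sums follow the 3′ ends of transcripts and are not per length, so levels are compared between cells and not between genes. After filtering, 8341 GA cells and 7485 control cells remained, with medians of 10772 and 16217 UMIs. The libraries shared 23 cell barcodes among 9322 and 8718. Neutrophil-like cells were 51.5% of GA cells and 27.3% of control cells (4292 and 2047 cells), while macrophage-like or monocyte-like cells were 14.2% and 23.3% (1184 and 1742 cells). Dendritic-like cells numbered 178 and 304.

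C-type lectin receptors sit on the surface of myeloid cells and bind carbohydrates, glycolipids or proteins of microbes and of damaged host cells. One group signals through activating adaptors: Clec4n (Dectin-2), Clec4d (MCL) and Clec4e (Mincle) use the Fc receptor gamma chain encoded by Fcer1g, and Clec5a (MDL-1) uses DAP12, encoded by Tyrobp. These adaptors recruit the kinase Syk, and a complex built on Card9 then switches on cytokine genes. A second group, Clec4a2 (DCIR) and Clec12a (MICL), carries an inhibitory motif in its cytoplasmic tail that recruits phosphatases such as the product of Ptpn6. Clec10a (MGL1) binds galactose-type sugars and marks dendritic cells and some macrophages. In healing bone, neutrophils and monocytes arrive early after injury and macrophages clear debris.

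Clec4n, Clec4d and Clec4e lie side by side in the mouse genome. In the GRCm38 assembly, to which the mm10 coordinates of the files correspond, the GENCODE vM21 annotation places Clec4n at chr6:123229843-123247021 on the plus strand, Clec4d at chr6:123262111-123275265 on the plus strand and Clec4e at chr6:123281789-123289870 on the minus strand. Only 15.1 kb separate Clec4n from Clec4d, and 6.5 kb separate Clec4d from Clec4e. Clec4a2 (chr6:123106428-123143999, plus) ends 85.8 kb before Clec4n. Clec12a (chr6:129342691-129365303, plus) and Clec5a (chr6:40574894-40585821, minus) lie farther off on the same chromosome, and Clec10a (chr11:70156197-70170834, plus) lies on another. All 7 measured genes are annotated as protein coding.

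The RefSeq promoter table, on build GRCm38.p6, held 6 of the 8 genes, without Clec4n and Clec10a. The promoters below are shown for a pair of receptors that was higher in mature than in precursor neutrophils, Clec4d and Clec4e, and a pair with the opposite order, Clec4a2 and Clec12a. Each runs 5′ to 3′ on the gene's own strand from 250 bases before to 50 bases after the start of transcription. The first promoter listed for each gene was taken. For Clec4a2 and Clec12a its start lies inside the gene span given above, and for Clec4d and Clec4e at or near the 5′ end of the span. Capitals mark letters of 3 motifs searched on both strands, an ETS core (GGAAGT), a C/EBP motif (TTGCNNAA) and an interferon response motif (GAAANNGAA).
Clec4d, chr6:123261857-123262156, plus: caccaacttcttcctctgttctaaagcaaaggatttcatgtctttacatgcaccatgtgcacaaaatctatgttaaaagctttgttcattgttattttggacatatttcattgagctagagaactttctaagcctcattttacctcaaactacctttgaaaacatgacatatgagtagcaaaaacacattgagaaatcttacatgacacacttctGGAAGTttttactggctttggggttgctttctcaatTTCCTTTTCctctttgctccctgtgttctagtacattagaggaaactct
Clec4e, chr6:123289822-123290121, minus: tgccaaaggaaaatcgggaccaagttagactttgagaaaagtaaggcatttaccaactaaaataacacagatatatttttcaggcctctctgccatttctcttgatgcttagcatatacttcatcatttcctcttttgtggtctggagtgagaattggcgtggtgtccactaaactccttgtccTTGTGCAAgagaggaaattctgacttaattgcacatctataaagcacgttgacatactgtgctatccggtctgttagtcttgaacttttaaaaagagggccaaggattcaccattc
Clec4a2, chr6:123122440-123122739, plus: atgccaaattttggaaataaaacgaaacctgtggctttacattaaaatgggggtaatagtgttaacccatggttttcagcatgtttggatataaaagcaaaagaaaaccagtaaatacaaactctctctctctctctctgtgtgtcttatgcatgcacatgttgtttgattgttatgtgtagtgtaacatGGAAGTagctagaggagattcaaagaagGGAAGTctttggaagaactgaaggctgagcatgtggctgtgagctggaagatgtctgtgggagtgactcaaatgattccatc
Clec12a, chr6:129349994-129350293, plus: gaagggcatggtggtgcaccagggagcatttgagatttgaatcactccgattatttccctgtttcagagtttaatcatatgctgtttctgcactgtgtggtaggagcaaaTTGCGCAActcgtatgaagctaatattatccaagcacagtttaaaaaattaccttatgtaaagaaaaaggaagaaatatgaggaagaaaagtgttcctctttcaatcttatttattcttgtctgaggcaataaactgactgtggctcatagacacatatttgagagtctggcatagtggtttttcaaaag
The ETS core was found in Clec4d, 35 bases before the start, and in Clec4a2, 60 and 32 bases before it. The C/EBP letters were found 66 bases before the start of Clec4e and 140 bases before that of Clec12a. The interferon response letters were found on the reverse strand of Clec4d, from base 2 after the start. None of these matches overlapped another, and the pairs with opposite stage patterns were not set apart by them. Of all 32851 promoters of this length in the table, 23.8% held the ETS core, 10.8% the C/EBP motif and 8.6% the interferon response motif. A match is a description of the letters and not of a bound site.

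Across the cell classes, each receptor gene was highest in a myeloid or progenitor-like class, but the order of classes was not the same for all genes. Clec4n was highest in dendritic-like cells, at 341.5 CPM in GA and 331.8 CPM in control, followed by macrophage-like or monocyte-like cells at 222 and 324 CPM, and by neutrophil-like cells at 28.1 and 113.9 CPM. The ranges of these 3 classes over the libraries did not overlap, but dendritic-like and macrophage-like or monocyte-like cells were close in control. The macrophage-like or monocyte-like subclusters without a name, described below, were above dendritic-like cells, at 380.7 and 545.5 CPM. Progenitor-like cells had 3.9 and 5.6 CPM of Clec4n, and B-like cells, used as a class that should lack it, 0.60 and 1.6 CPM. Macrophage-like or monocyte-like cells held most Clec4n transcripts of each library, 70.0% in GA and 77.2% in control. The far fewer dendritic-like cells held 14.3% and 11.4%, and neutrophil-like cells 13.4% and 10.2%.

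Clec4d and Clec4e had neutrophil-like cells at the top instead. Clec4d stood at 838.1 CPM in GA and 979.4 CPM in control in neutrophil-like cells, 479.7 and 610.2 CPM in macrophage-like or monocyte-like cells, and 211 and 169.4 CPM in dendritic-like cells. Clec4e stood at 520.9 and 500.2 CPM, 286.1 and 269.7 CPM, and 205.8 and 189 CPM in the same 3 classes. For both genes the 3 classes kept this order in both libraries without overlap. In B-like cells Clec4d had 2.5 and 2.6 CPM and Clec4e 5.1 and 1.3 CPM. The few erythroid-like cells, 55 in GA and 79 in control, had more, with Clec4d at 19.9 and 135 CPM and Clec4e at 67.3 and 88.8 CPM.

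Clec5a, the partner of DAP12, was also highest in neutrophil-like cells, at 105.2 CPM in GA and 104.1 CPM in control. It was next in progenitor-like cells, at 64.2 and 69.0 CPM, ahead of macrophage-like or monocyte-like cells at 49.2 and 54.6 CPM. The inhibitory receptor gene Clec4a2 had 205.8 and 216.4 CPM in neutrophil-like cells, and the ranges of dendritic-like, macrophage-like or monocyte-like and progenitor-like cells below it overlapped, between 105 and 201.8 CPM. Clec12a, the other inhibitory receptor gene, was highest in progenitor-like cells, at 332.7 and 445.4 CPM, and second in plasmacytoid dendritic-like cells, at 220.3 and 225.5 CPM. In plasmacytoid dendritic-like cells Clec4a2 had 0.75 and 1.1 CPM, so the inhibitory pair parted in that class.

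Clec10a, a marker of dendritic cells, reached 125.8 CPM in GA and 214.1 CPM in control in dendritic-like cells and 93.3 and 156 CPM in plasmacytoid dendritic-like cells, ranges that overlapped. Macrophage-like or monocyte-like cells followed at 40.4 and 24.9 CPM, a range that overlapped that of erythroid-like cells at 32.4 and 10.7 CPM. In neutrophil-like cells only 3 UMIs were counted in GA and 4 in control, so no ratio was taken there.

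**Figure D1:**
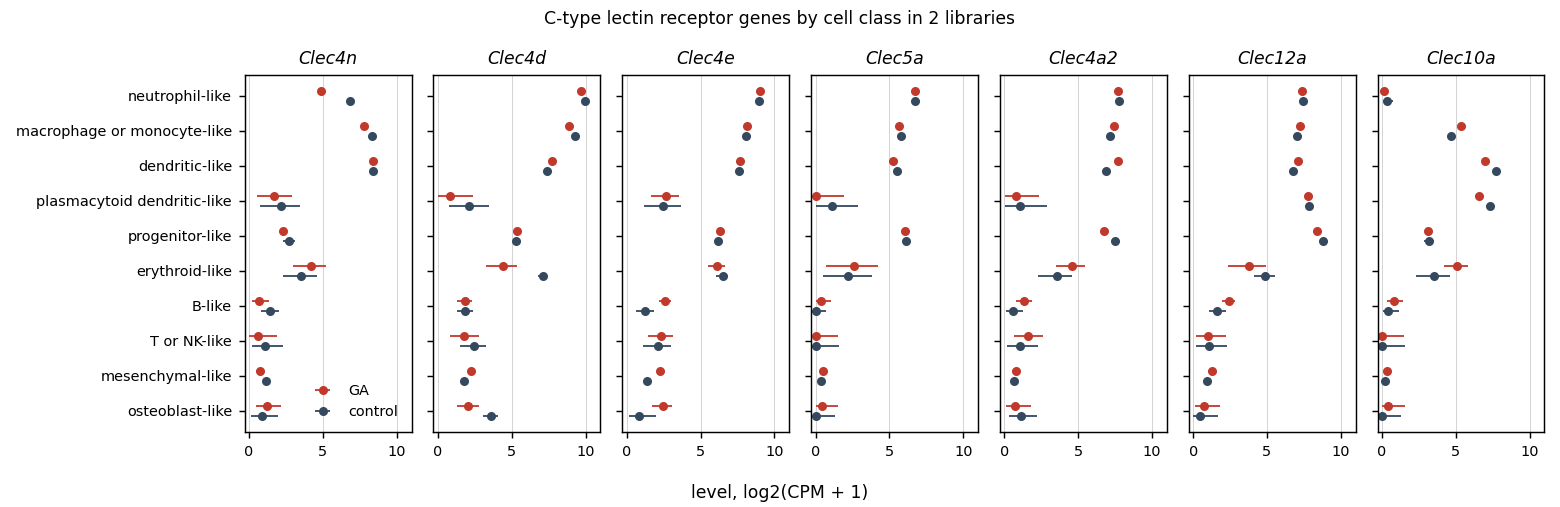
Level of each of the 7 measured receptor genes, as log2(CPM + 1), in the 10 cell classes with at least 50 cells in each library, with GA in red, control in blue and bars for the exact 95% Poisson interval. Clec4n reads highest in dendritic-like cells, Clec4d, Clec4e and Clec5a in neutrophil-like cells, Clec12a in progenitor-like cells and Clec10a in dendritic-like cells, and the neutrophil-like GA point of Clec4n lies below its control point.

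In neutrophil-like cells, Clec4n was lower in the GA library and the other measured receptors lay within 1.5-fold. Clec4n gave 1107 UMIs among 4292 GA cells and 1672 UMIs among 2047 control cells, that is 28.1 CPM (26.5 to 29.8) against 113.9 CPM (108.5 to 119.5). The log2 ratio of GA over control was -2.02 (-2.13 to -1.91), the value on which the set was selected. The 5 cells with the most Clec4n held 103 and 176 of these UMIs, so the counts did not rest on those 5 alone. A subcluster of 109 GA cells and 105 control cells, described below, supplied 45.2% and 62.8% of the UMIs. Neutrophil-like cells had medians of 6916 UMIs in GA and 5027 UMIs in control. Thinned to 2000 UMIs per cell, 208 of 4262 GA cells (4.88%, 4.25 to 5.57) and 208 of 2021 control cells (10.3%, 9.0 to 11.7) held a Clec4n UMI. In B-like cells the thinned shares were 0 of 588 cells in GA, with an upper limit of 0.625%, and 0.173% in control, at medians of 6522 and 5957.5 UMIs. Without thinning, 7.22% of GA and 12.6% of control neutrophil-like cells held a Clec4n UMI.

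The neighbours of Clec4n among the examined receptors, Clec4d and Clec4e, did not share this difference. Clec4d had a log2 ratio of -0.22 (-0.25 to -0.20) in neutrophil-like cells and Clec4e one of 0.06 (0.02 to 0.10). Clec5a was at 0.01 (-0.07 to 0.10), Clec4a2 at -0.07 (-0.13 to -0.01) and Clec12a at -0.04 (-0.11 to 0.03), and the intervals of Clec5a and Clec12a included 0. Of the 6 receptors with at least 200 UMIs in the class, 1 was lower in GA by over 1.5-fold, and this was the gene that the choice was made on. Of all 7996 genes with as many UMIs, 5.32% were lower by over 1.5-fold and 0.900% higher, and 0 of the 6 receptors were higher. The median log2 ratio was -0.06 over the 6 receptors and -0.15 over all those genes.

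Summed markers of macrophages and monocytes, of dendritic cells and of mesenchymal cells were lower in GA in this class and those of B cells higher, and their part in the Clec4n value was not tested. The summed macrophage and monocyte markers stood at 66.1 CPM in GA and 83.1 CPM in control, with 6 of 10 lower in GA, single markers from 0.81 to 25.3 CPM in GA and from 0.55 to 30.4 CPM in control, and none at 0. The summed dendritic markers stood at 16.1 and 22.8 CPM with 1 of 8 at 0 in each library, and the mesenchymal markers at 348.5 and 467.1 CPM with 9 of 9 lower in GA. The B markers stood at 4.3 and 2.9 CPM with 1 of 8 lower in GA. The neutrophil markers of the class, S100a8 and S100a9 among them, summed to 339486 and 309862 CPM.

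**Figure D2:**
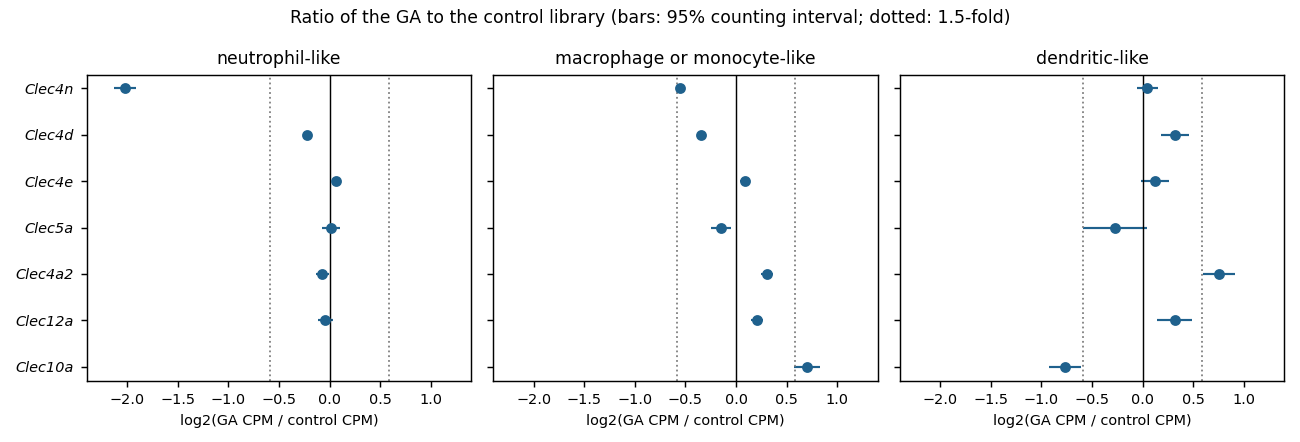
Log2 ratio of CPM in the GA library over the control library for each receptor gene with at least 200 UMIs in neutrophil-like, macrophage-like or monocyte-like and dendritic-like cells, with 95% counting intervals as bars and dotted lines at a fold of 1.5. Clec4n lies at -2.02 in neutrophil-like cells, -0.55 in macrophage-like or monocyte-like cells and 0.04 in dendritic-like cells, and Clec10a lies at 0.70 and -0.77 in the last 2 classes.

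Within the neutrophil-like class, Clec4n transcripts came from a small part of the cells. Subclusters were named by marker genes as dividing precursor, immature, mature, chemokine (Ccl3, Ccl4, Cxcl2, Cxcl3 and Tnf) and interferon (Ifit1, Ifit3, Isg15, Rsad2 and Cmpk2). Clec4n was at 0.67 CPM in GA and 0.57 CPM in control in dividing precursors and at 0.58 and 2.3 CPM in immature cells. It was at 34.1 and 104.6 CPM in mature cells, 89.0 and 216.8 CPM in chemokine cells and 1050 and 2730 CPM in interferon cells. Precursor and immature cells were thus at the level of B-like cells, and the mature, chemokine and interferon groups above it. The groups carry the names of their markers, and no order of maturation was computed. All receptors had been left out of the genes used for clustering.

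The interferon subcluster held 109 GA cells and 105 control cells, 2.54% (2.09 to 3.06) and 5.13% (4.21 to 6.18) of the neutrophil-like cells. It supplied 500 of 1107 Clec4n UMIs in GA (45.2%) and 1050 of 1672 in control (62.8%). Clec4n was among its 10 genes of largest fold, beside Ifit1, Ifit3, Csf1 and Cxcl10. Of the 10 neutrophil markers, the receptor genes Csf3r, at 1940 and 1859 CPM, and Cxcr2, at 1056 and 1038 CPM, were near their levels in mature cells, 1680 and 1672 CPM for Csf3r and 1141 and 1070 CPM for Cxcr2. Others were far lower than in mature cells, with Retnlg at 907.1 and 975.1 CPM against 21094 and 22391 CPM and Ly6g at 23.1 and 0 CPM against 503 and 279.6 CPM. The complement gene C1qa, a macrophage marker, was at 6.3 and 10.4 CPM, or 3 and 4 UMIs. Adgre1, another marker on the macrophage list, was at 98.7 and 301.6 CPM and made up most of the summed macrophage markers of the control cells, 233.1 CPM in GA and 431.6 CPM in control with 7 of 10 lower in GA and 2 and 1 at 0. The dendritic markers summed to 56.7 and 137.8 CPM there, with 6 of 8 at 0 in each library. The part of these differences in the Clec4n value was not tested.

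Clec4n was lower in GA in each of the mature, chemokine and interferon groups. The log2 ratio was -1.62 (-1.84 to -1.40) in mature cells, -1.28 (-1.54 to -1.02) in chemokine cells and -1.38 (-1.54 to -1.22) in interferon cells. The summed neutrophil markers were higher in GA in the same groups, at 243682 and 212974 CPM in mature cells, 154739 and 107546 CPM in chemokine cells and 86535 and 52312 CPM in interferon cells, and their part in these ratios was not tested. In the interferon cells the thinned share with a Clec4n UMI was 58.3% (48.5 to 67.8) in GA and 83.7% (75.1 to 90.2) in control. The summed interferon markers went the other way there, at 6459 CPM in GA and 2637 CPM in control, with 0 of 5 lower in GA. In mature cells all 5 were lower, with sums of 238.8 and 333.9 CPM. The mature group pools 6 subclusters, and the one led by Egr1 and Egr2 held most of its Clec4n, 237 of 342 UMIs in GA and 298 of 353 in control, at 109.3 and 513.9 CPM and a ratio of -2.23 (-2.48 to -1.98). The other 5 were each below the minimum of 200 UMIs. The subcluster led by Eprs was nearly level, at -0.21 (-0.96 to 0.58), and that led by Stfa2l1 and Rhoc was at -0.71 (-1.58 to 0.20), both intervals that include 0. The largest mature subcluster, led by Mov10, had 2.1 and 6.5 CPM, and the one led by Stfa2 had 5 UMIs in GA and 0 in control.

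The class value of Clec4n differed with how cells were assigned to the class. With both libraries given the control library's shares of UMIs by named group, the ratio was -1.40. Subclusters without a name counted as a single group there, and the subclusters within each group stayed pooled. Without the interferon and chemokine subclusters the ratio was -1.46. That setting kept the mature subcluster led by Egr1 and Egr2, with 237 and 298 Clec4n UMIs. Its marker scores for mature (1.16) and chemokine (1.09) cells were close. The ratio without that subcluster as well was not taken. With log-normalised counts in place of Pearson residuals, 109 GA cells and 142 control cells left the class and took 522 and 1307 Clec4n UMIs with them. Of these cells, 85 and 89 were interferon cells. Neutrophil markers summed to 86682 and 45744 CPM in the cells that left and to 342353 and 319111 CPM in those that stayed. Macrophage and monocyte markers summed to 236 and 409 CPM in the cells that left and to 64.2 and 71.7 CPM in those that stayed. Clec4n was at 1182 and 2632 CPM in the cells that left and at 15 and 25.7 CPM in those that stayed. The class ratio became -0.78. Naming each cell by its own highest marker score gave -0.65, and of the 305 GA cells and 359 control cells that left the class, 46 and 83 were interferon cells. The cause of that shift was not tested. The ratio was past 1.5-fold under each of these settings. All of them recount the libraries on which the set was chosen, so this too is a description.

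**Figure D3:**
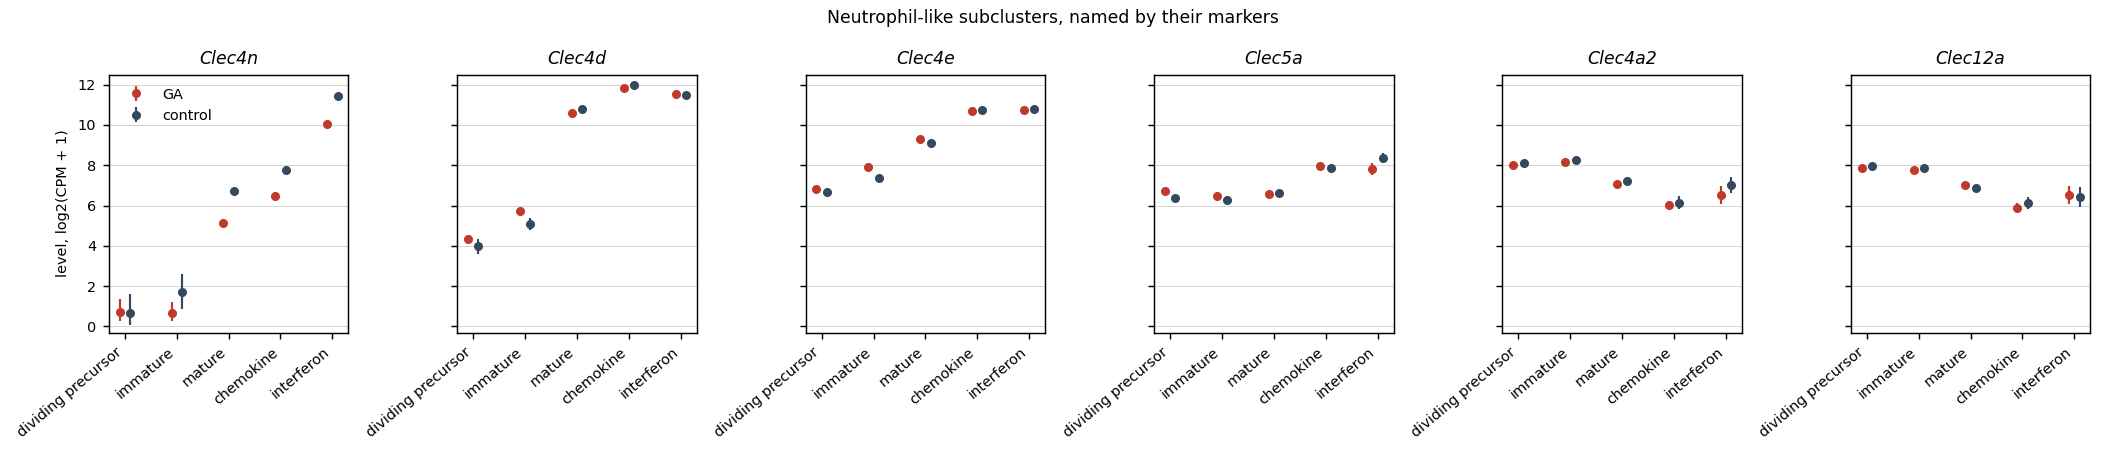
Level of 6 receptor genes, as log2(CPM + 1), in the 5 named groups of neutrophil-like subclusters, with GA in red, control in blue and bars for the exact 95% Poisson interval. Clec4n, Clec4d and Clec4e read higher in mature, chemokine and interferon cells than in dividing precursors, and Clec4a2 and Clec12a read lower. The 2 libraries part for Clec4n in the mature, chemokine and interferon groups.

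Over the same subclusters Clec4d and Clec4e shared a pattern, and Clec4a2 and Clec12a had another. Clec4d went from 19.0 CPM in GA and 14.9 CPM in control in dividing precursors to 1565 and 1771 CPM in mature cells and 3584 and 3995 CPM in chemokine cells, and had 2982 and 2834 CPM in interferon cells. Clec4e went from 112.2 and 101.9 CPM to 626.2 and 544.8 CPM and to 1657 and 1715 CPM, with 1724 and 1786 CPM in interferon cells. Both activating receptor genes were thus higher in both libraries in mature, chemokine and interferon cells than in dividing precursors. The inhibitory pair was lower in those groups than in dividing precursors. Clec4a2 went from 256.6 and 276.1 CPM in dividing precursors to 64.7 and 70.0 CPM in chemokine cells, and was highest in immature cells, at 289.3 and 306 CPM. Clec12a went from 228.4 and 245.7 CPM in dividing precursors to 58.8 and 69.2 CPM in chemokine cells. Clec5a followed neither pattern, at 103.4 and 81.5 CPM in dividing precursors, 92.9 and 96.6 CPM in mature cells and 247.5 and 231.2 CPM in chemokine cells.

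Within these groups, few of the other receptors differed by over 1.5-fold between the libraries. Some differed by less with intervals that did not include 0. In mature cells Clec4d had a log2 ratio of -0.18 (-0.22 to -0.14) and Clec4e one of 0.20 (0.13 to 0.28). In interferon cells, where Clec4n was at -1.38, Clec4d had a log2 ratio of 0.07 (-0.04 to 0.19), Clec4e one of -0.05 (-0.20 to 0.10) and Clec5a one of -0.56 (-0.94 to -0.17). In immature cells Clec4d was higher in GA, at 51.7 against 33.2 CPM with a log2 ratio of 0.64 (0.30 to 0.99), and Clec4e was at 0.56 (0.41 to 0.71). With the subclusters of each group pooled, no receptor other than Clec4n, among those with at least 200 UMIs, passed 1.5-fold in mature, chemokine or interferon cells. In single subclusters some did: Clec4d was lower in the mature subcluster led by Galnt11 and Rgs1 (-0.62, from 2553 and 1371 UMIs) and Clec4e higher in that led by Stfa2 (0.61, from 417 and 82 UMIs). In the immature subcluster led by R74862, Clec4e was at 1.04 and Clec4d at 0.86. In the immature one led by Ldhc, Clec4d was at 0.60, and 2 subclusters without a name had Clec4e at 0.60 and 0.84. In interferon cells Clec4a2 and Clec12a were below the minimum of 200 UMIs. The share of all genes past 1.5-fold was not computed for these groups and subclusters, so the calls have no such share beside them.

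Neutrophil-like cells with Clec4n nearly all held Clec4d as well. After thinning to 2000 UMIs, Clec4d was detected in 96.6% (93.2 to 98.6) of the 208 GA cells with Clec4n and in 63.6% of those without, and in 95.7% (91.9 to 98.0) and 65.4% in control. Clec4e was detected in 78.4% of the Clec4n cells of each library, against 56.2% of the other cells in GA and 48.6% in control. Clec12a was detected less often in cells with Clec4n, at 14.9% in each library against 23.0% and 22.8%. The cells share their library and differ in maturity, so these shares are given as a description. In macrophage-like or monocyte-like cells the gap was smaller, with Clec4d in 64.4% of Clec4n cells against 44.9% of others in GA and in 68.3% against 49.2% in control.

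**Figure D4:**
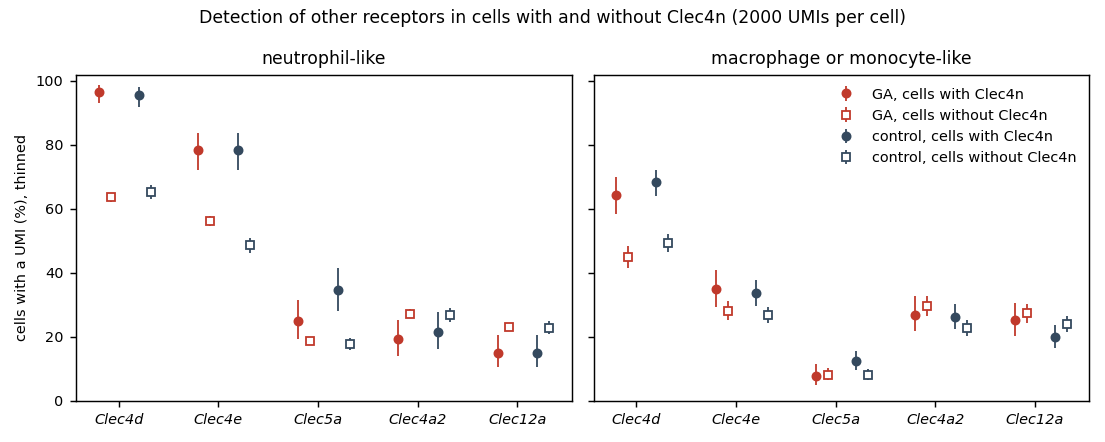
Share of cells with a UMI of 5 receptor genes, in percent after thinning each cell to 2000 UMIs, among cells with Clec4n (filled circles) and without it (open squares), with GA in red, control in blue and bars for the 95% Clopper-Pearson interval. In neutrophil-like cells Clec4d lies at 96.6% and 95.7% beside Clec4n and at 63.6% and 65.4% without it, and the same gap is narrower in macrophage-like or monocyte-like cells.

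In macrophage-like or monocyte-like cells, Clec10a was higher in GA and Clec4n and Clec4d were lower by less than 1.5-fold. Clec10a gave 1052 UMIs in GA and 971 in control, that is 40.4 CPM against 24.9 CPM and a log2 ratio of 0.70 (0.57 to 0.83). Clec4n gave 5782 and 12631 UMIs, 222 against 324 CPM, with a ratio of -0.55 (-0.59 to -0.50), and Clec4d was at -0.35 (-0.38 to -0.32). Over the class, the inhibitory receptor genes were somewhat higher in GA, Clec4a2 at 0.31 (0.25 to 0.36) and Clec12a at 0.21 (0.15 to 0.27). They were not higher in all its subsets. Clec4e was at 0.09 (0.04 to 0.13) and Clec5a at -0.15 (-0.25 to -0.05). Of the 7 receptors 0 were lower and 1 was higher by over 1.5-fold, against 3.23% lower and 5.63% higher among all 10226 genes with at least 200 UMIs. The median log2 ratio was 0.09 over the 7 receptors and 0.08 over those genes.

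The neutrophil markers stood apart between the libraries in this class. Their sum was 1369 CPM in GA and 341.2 CPM in control, all 10 were higher in GA, single markers ran from 1.2 to 658 CPM in GA and from 0.33 to 118 CPM in control, and none was at 0. The part of these transcripts in the ratios was not tested. The macrophage and monocyte markers summed to 8459 CPM in GA and 9337 CPM in control.

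The ratios of Clec4n and Clec10a were not the same in all subsets of these cells. Clec4n was at 244.8 CPM in both libraries in C1q macrophages, with a log2 ratio of 0.00 (-0.08 to 0.08), and at 326.1 and 362.7 CPM in Arg1 macrophages, with a ratio of -0.15 (-0.23 to -0.08). In Ly6c2 monocytes it was at 76.1 CPM in GA and 154.1 CPM in control, a ratio of -1.02 (-1.24 to -0.80), and in dividing cells at 67.2 and 101 CPM, a ratio of -0.59 (-0.84 to -0.34). Clec4n was thus lower in GA in the Ly6c2 monocytes and level in the C1q macrophages, and the difference between the subsets was not tested. Ly6c2 monocytes were 20.4% (18.1 to 22.8) of the class in GA and 12.7% (11.2 to 14.4) in control, and dividing cells 13.3% and 5.22%. The subclusters without a name had the highest level, 380.7 and 545.5 CPM, and held 22.4% and 33.4% of the Clec4n UMIs of the class. One was led by Gsta3, with 59 GA and 139 control cells. Another, with 49 and 119 cells, was led by Slc9b2 and had the osteoclast markers Ctsk and Acp5 among its top genes. The last was led by Bcas1, with 27 and 49 cells and a median of 2855 UMIs. Clec4n was not counted in each of them. With the control library's shares of UMIs by subset given to both, the class ratio of Clec4n lay at -0.25.

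Clec10a was concentrated in C1q macrophages, which held 60.0% of its UMIs of the class in GA and 61.8% in control. It was at 87.9 CPM in GA and 41.0 CPM in control there, a log2 ratio of 1.10 (0.94 to 1.26). The C1q cells of both libraries sat in the same subclusters but in different shares. The subcluster led by Cbr2 held 115 of 359 GA cells and 132 of 647 control cells. The largest, led by Hbegf, held 111 and 239, the one led by Cd209f 37 and 36, and the one led by Hspa1a 36 and 123. The one led by H2-Eb1, with Mgl2 among its top genes, held 25 and 35. Those led by Nav3 and Itgad held 20 and 62, and 15 and 20. Clec10a was not counted in each of these subclusters. The part of these shares in the ratio was not tested. In Arg1 macrophages Clec10a was at 17.9 and 8.3 CPM, a ratio of 1.11 (0.70 to 1.51), from 115 and 96 UMIs. In Ly6c2 monocytes and dividing cells its UMIs were below the minimum. Clec12a passed 1.5-fold in Arg1 macrophages, at 115 and 70.3 CPM with a ratio of 0.71 (0.56 to 0.85), and was at 163.3 and 163.8 CPM in C1q macrophages. Clec4a2 was at 0.34 (0.23 to 0.45) and 0.41 (0.31 to 0.52) in these subsets. In dividing cells both were lower in GA, Clec12a at -0.28 (-0.46 to -0.09) and Clec4a2 at -0.21 (-0.39 to -0.03). In Ly6c2 monocytes they were at -0.16 (-0.33 to 0.01) and 0.05 (-0.12 to 0.22). Clec4e was lower in C1q macrophages, at 122.9 and 181.6 CPM with a ratio of -0.56 (-0.67 to -0.45). Clec5a was lower in Ly6c2 monocytes, at 27.6 and 42.3 CPM with a ratio of -0.62 (-1.01 to -0.22). Neutrophil markers summed to 2462 and 533.9 CPM in Ly6c2 monocytes and to 955 and 312.6 CPM in C1q macrophages. For the subsets of macrophage-like or monocyte-like cells, the share of all genes past 1.5-fold was not computed.

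**Figure D5:**
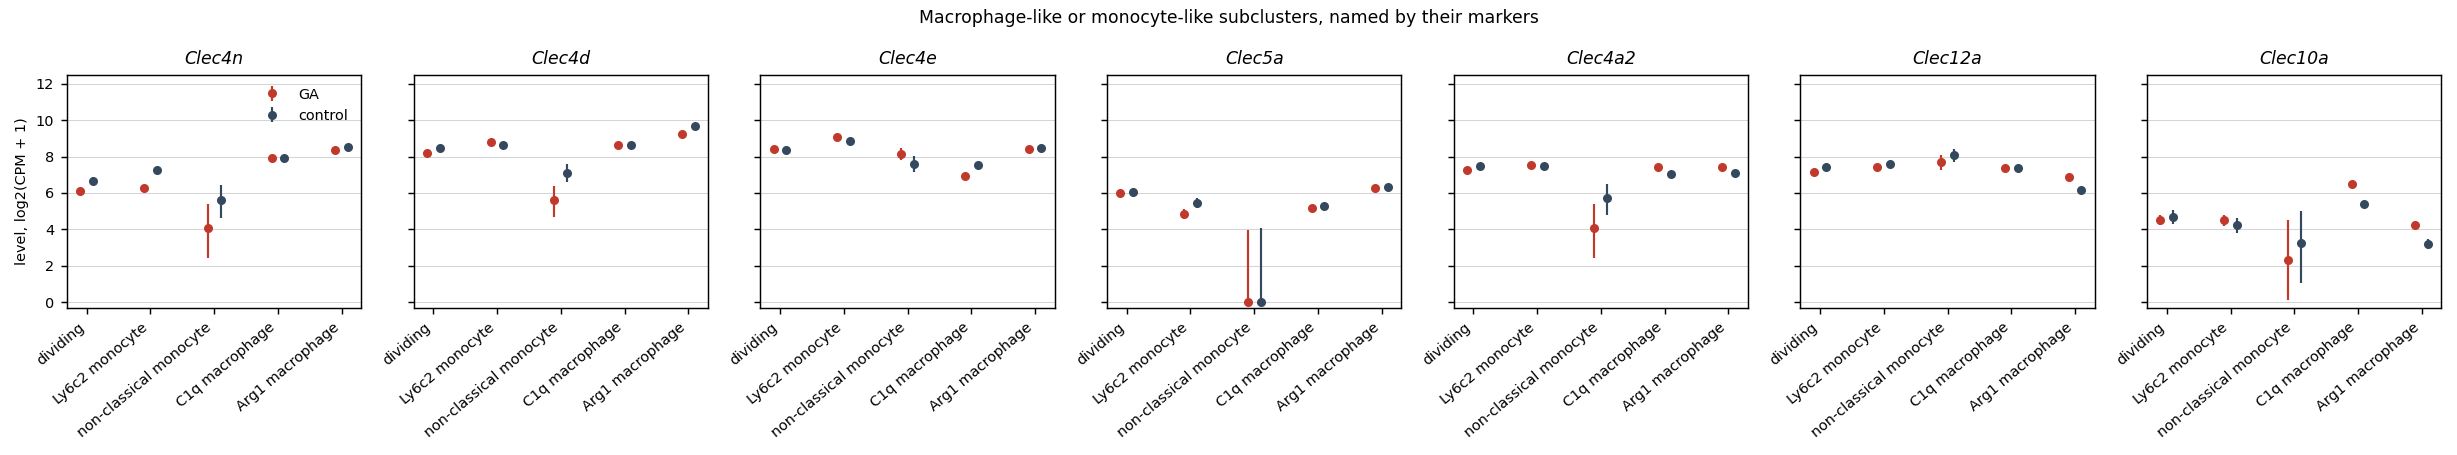
Level of the 7 measured receptor genes, as log2(CPM + 1), in the 5 named groups of macrophage-like or monocyte-like subclusters, with GA in red, control in blue and bars for the exact 95% Poisson interval. Clec4n reads lower in GA in Ly6c2 monocytes (76.1 against 154.1 CPM) and equal in C1q macrophages, and Clec10a reads higher in GA in C1q and Arg1 macrophages.

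Dendritic-like cells, few in number, gave another order of ratios. Clec10a was lower in GA, with 436 and 1202 UMIs, 125.8 and 214.1 CPM and a log2 ratio of -0.77 (-0.93 to -0.61). Clec4a2 was higher, with 699 and 672 UMIs, 201.8 and 119.7 CPM and a ratio of 0.75 (0.60 to 0.91). Clec4n had a ratio of 0.04 (-0.06 to 0.15), Clec4d of 0.32 (0.18 to 0.46) and Clec12a of 0.32 (0.14 to 0.49). Of the 7 receptors 1 was lower and 1 higher by over 1.5-fold, against 3.60% lower and 4.02% higher among all 5501 genes with at least 200 UMIs. The thinned share of cells with Clec10a was 14.0% in GA and 27.6% in control. The macrophage and monocyte markers summed to 4688 CPM in GA and 3438 CPM in control with 1 of 10 lower in GA. The dendritic markers summed to 7140 and 8324 CPM with 6 of 8 lower. H2-Eb1 made up most of that sum, at 6357 and 7365 CPM. Among the other lower markers, Cd209a was at 171.7 and 305.3 CPM, Xcr1 at 8.1 and 20.1 CPM and Zbtb46 at 47.05 and 73.56 CPM. Fscn1, at 79.1 and 20.5 CPM, and Naaa, at 233.2 and 220.3 CPM, were higher in GA. The neutrophil markers summed to 582.8 and 206.8 CPM with 0 of 10 lower in GA. The part of these markers in the ratios was not tested. In plasmacytoid dendritic-like cells Clec10a was also lower, at a ratio of -0.74 (-1.10 to -0.38) from 125 and 139 UMIs. In progenitor-like cells Clec4a2 was lower, at 105 and 182.8 CPM with a ratio of -0.80 (-0.90 to -0.70), and Clec12a was at -0.42 (-0.48 to -0.36). For plasmacytoid dendritic-like and progenitor-like cells, the share of all genes past 1.5-fold was not computed.

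Over all cells of a library the ratios differed from those within single classes. The part of the make-up of the libraries in this was not tested. Clec12a was at 125.5 CPM in GA and 65.2 CPM in control over all cells, a log2 ratio of 0.94, against 0.21 in macrophage-like or monocyte-like cells and -0.04 in neutrophil-like cells. Clec4e was at 0.86 and Clec5a at 0.89 over all cells, and both lay within 0.15 of 0 in those 2 classes. Clec4n was at -0.79 over all cells, with 8255 and 16362 UMIs.

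The signalling partners of the receptors did not pass 1.5-fold in neutrophil-like or macrophage-like or monocyte-like cells. The adaptor genes Fcer1g, Tyrobp and Hcst had log2 ratios of 0.11, 0.02 and -0.31 in neutrophil-like cells and -0.01, -0.08 and -0.04 in macrophage-like or monocyte-like cells. Fcer1g, the chain that Clec4n needs, was at 1278 CPM in GA and 1183 CPM in control in neutrophil-like cells. Of the 10 kinases and Card9 complex genes and the 3 phosphatases, 0 passed in either direction in these classes, and all had at least 200 UMIs. Over all genes with as many UMIs, 5.32% were lower and 0.900% higher in neutrophil-like cells. In macrophage-like or monocyte-like cells 3.23% were lower and 5.63% higher. In dendritic-like cells 1 gene of these lists passed, Malt1, which encodes the protease of the Card9 complex, at 485.2 and 763.2 CPM (-0.65). Over all genes of that class, 3.60% were lower and 4.02% higher.

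Among 12 cytokine, chemokine and related output genes, 8 had at least 200 UMIs in neutrophil-like cells and 2 were lower in GA, the chemokine gene Ccl3 at 75.6 and 130.2 CPM (-0.78) and Tnf at 45.7 and 74.1 CPM (-0.70). None of these 8 was higher. Over all genes measured in the class, 5.32% were lower and 0.900% higher. In macrophage-like or monocyte-like cells 10 were measured, and the neutrophil attractant gene Cxcl1 was lower (-0.82) and Il6 higher (0.88), beside 3.23% lower and 5.63% higher over all genes. In dendritic-like cells Cxcl1 (-0.59), Il1b (-0.81) and Ptgs2 (-0.85) were lower and Ccl3 (1.10) and Ccl4 (0.76) higher, beside 3.60% and 4.02% over all genes. Of 13 other C-type lectin genes, 5 were measured in neutrophil-like cells and 2 were lower in GA, Clec4b2 at 3.4 and 8.2 CPM (-1.29) and Clec4a3 at 3.6 and 6.1 CPM (-0.76), beside the same 5.32% over all genes of the class. The genome positions of these other genes were not looked up. Clec4a1, Clec4a3 and Clec4a2 are close relatives, and whether the counting split reads between them was not tested. Clec4a1 was higher in GA in macrophage-like or monocyte-like cells (0.79) and in dendritic-like cells (0.80).

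The likeness of patterns was described over 10 cell classes in 2 libraries, 20 points that share their libraries and depth, by the Pearson correlation of log2(CPM + 1) among 15196 genes. Most like Clec4n were Sirpb1c (0.960), Nod2 (0.947), Pla2g7 (0.946), Cd300c2 (0.943) and Krt80 (0.943). C5ar1 (0.981) and Ccr1 (0.976) were most like Clec4d, and Tlr2 (0.974) and Nlrp3 (0.972) most like Clec4e. Igsf6 (0.978) and Gpr84 (0.976) were most like Clec5a, Igsf6 (0.985) and Lyz2 (0.976) most like Clec4a2, Alox5ap (0.961) most like Clec12a, and Htr7 (0.932) and Pld4 (0.912) most like Clec10a. Among the receptors themselves the correlation ran from 0.26 between Clec4d and Clec10a to 0.98 between Clec5a and Clec4a2. Clec4n reached 0.87 with Clec4d and also with Clec4e.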

How the data were processed

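Single-cell RNA sequencing with 10x Genomics reagents was performed on 2 libraries, GA and control. The authors deposited raw counts, whole numbers of UMIs per gene and barcode, made with Cell Ranger (7.0.1 in the file headers) on mm10. The matrices held 182949385 and 214993030 UMIs.

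Barcodes with 500 to 140000 UMIs, 200 to 9500 genes and up to 15% mitochondrial UMIs were kept, and those of highest doublet score (0.8% per 1000 barcodes) were removed. Pearson residuals (theta 100) of 2000 variable genes, without the receptors and listed genes, were reduced to 50 components, corrected with Harmony written in NumPy 2.4.6 (theta 2) and clustered with Leiden (leidenalg 0.10.2, resolution 1, 15 neighbours). Of 39 clusters, 33 were named from marker lists, and neutrophil-like and macrophage-like or monocyte-like cells were clustered again. Thresholds and vetoes for naming were chosen once the data were known.

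Ratios of CPM carry exact conditional 95% intervals, CPM exact Poisson intervals and shares Clopper-Pearson intervals. Ratios were counted past 1.5-fold from 200 UMIs in both libraries together. For text, all receptors, listed genes past that fold, adaptors, and the genes most like each receptor were named, with 5 for Clec4n and 2 for the others. One gene that meets this rule is not reported here. The steps were tested on simulated data. The members and gene lists were chosen with earlier results of these data known. No test was made, because each condition had 1 library. Alternatives comprised 16 planned settings and 2 chosen after seeing the data.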

Additional observations from a re-analysis of the deposited data

Results flagged for a closer look

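Clec10a, Clec4a2 and Clec4d had ratios of GA over control on opposite sides of 0 in different cell classes, with 95% counting intervals that did not include 0. The differences between classes were not tested, as each condition had 1 library. Clec10a had a log2 ratio of 0.70 in macrophage-like or monocyte-like cells and -0.77 in dendritic-like cells. Clec4a2 was at -0.07 in neutrophil-like cells, 0.31 in macrophage-like or monocyte-like cells and 0.75 in dendritic-like cells, and the first of these ran from -0.10 to 0.08 over the alternatives, so its sign turned under some. Clec4d was at -0.22 in neutrophil-like cells, -0.35 in macrophage-like or monocyte-like cells and 0.32 in dendritic-like cells. The alternatives were run for neutrophil-like and macrophage-like or monocyte-like cells, and not for dendritic-like cells.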

How the results depend on the processing

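The log2 ratio of Clec4n in neutrophil-like cells was below 0 under all 17 alternatives, from -2.03 to -0.65. The alternatives recount the libraries on which the set was chosen, so they describe the processing and support nothing about GA. The ratio was -0.78 with log-normalised counts and -0.65 with cells named one by one. It was -1.87 relative to the median gene, -1.88 as a mean of CPM per cell and -1.83 after thinning. It was -1.40 with the control library's shares of UMIs by named group. Without the interferon and chemokine subclusters, but with the mature one led by Egr1 and Egr2, it was -1.46. Both settings were chosen after seeing the data. The count of receptors lower in GA in neutrophil-like cells became 2 with no minimum of UMIs, by the addition of Clec10a with 3 and 4 UMIs. In macrophage-like or monocyte-like cells it became 1 in place of 0 with doublets kept and relative to the median gene, as Clec4n, at -0.55, lies close to the fold of 1.5. The counts of receptors higher in GA did not change. Of 192 values of the other ratios under the alternatives, Clec4n in macrophage-like or monocyte-like cells among them, 72 lay outside the counting interval of the reported value. In that class Clec4n ran from -0.62 to -0.22, with 11 of 16 values outside its interval. Clec4d ran from -0.42 to -0.21 there, with 13 of 16 outside. Clec10a in macrophage-like or monocyte-like cells ran from 0.61 to 0.95 and stayed past 1.5-fold. Clec4e ran from -0.28 to 0.30 there and from -0.06 to 0.26 in neutrophil-like cells, so its direction is not fixed. The sign also turned in neutrophil-like cells for Clec5a (-0.12 to 0.16), Clec4a2 (-0.10 to 0.08) and Clec12a (-0.13 to 0.11). Except where a value is given for it, the cause was not tested. No paired analysis was possible because each condition had 1 library. Depth limits the small groups most, and no interval covers the spread between mice.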
